A study of Mus musculus with 6 samples.

Results

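The cation-chloride cotransporters are membrane proteins of the Slc12 family that carry chloride together with sodium, potassium or both, and 6 of their genes (Slc12a2, Slc12a4, Slc12a5, Slc12a7, Slc12a8 and Slc12a9) were followed by gene symbol through 6 RNA-seq libraries of cultured mouse cerebellar granule neurons (CGNs). They were listed as members of this family, with earlier results of these data known, and make up 6 of the 55341 genes in each count table. 3 libraries came from cultures given DMSO, the vehicle, and 3 from cultures given GSK-126, an inhibitor of EZH2, the enzyme that places trimethyl marks on lysine 27 of histone H3 (H3K27me3). The comparison asks how the transcripts of maturing CGNs differ when that enzyme is inhibited. Both groups were granule neuron precursors of early postnatal CD1-IGS mice that had been separated on a density gradient, plated and treated with AraC, which kills dividing cells. The labels name no genotype. Replicates were separate cultures, each from pooled pups, so a value describes a pool and not a single animal. The labels give the tissue as cerebellum and state neither the day of harvest nor the dose.

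Neurons set their internal chloride by the balance between loaders and extruders. NKCC1, encoded by Slc12a2, imports sodium, potassium and chloride. The potassium-chloride cotransporters export chloride, and KCC2, encoded by Slc12a5, is the one that neurons are known for. Immature neurons have much NKCC1 and little KCC2, so that opening GABA-A receptors lets chloride out and depolarises them, and during maturation KCC2 rises and the same receptors become inhibitory. KCC1 (Slc12a4) and KCC4 (Slc12a7) are exporters found in many cell types that also act in cell volume control. Slc12a8 and Slc12a9 are less well characterised members of the family, and no role in moving chloride is assumed for them here. These data are transcript levels, and neither chloride nor protein was measured.

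Gene counts per library ran from 8058760 to 12047837, with GSK-126 replicate 1 the deepest. Levels are given as CPM, each gene's count scaled to the library's total of gene counts, after TMM scaling, whose factors lay between 0.994 and 1.014. Effects are log2 fold changes of GSK-126 over DMSO from edgeR's quasi-likelihood test, with Benjamini-Hochberg adjustment over all 16343 genes tested, and a gene was called at an adjusted p under 0.05. The 12 granule neuron markers were all tested, and their summed level ran from 4380 to 8440 CPM over the 6 libraries. The cultures were not pure, since 11 markers of astrocytes and Bergmann glia summed to between 2550 and 8020 CPM and 6 fibroblast markers to between 6830 and 9850 CPM. In bulk libraries such as these, fewer cells of a type and less RNA per cell cannot be told apart.

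All 6 cotransporter genes passed the filter on low counts. With treatment as the only term 0 of the 6 were called, as was 0.0% of all genes tested (981 genes, and 2 of the 6, had an unadjusted p under 0.05). With the replicate number as a block, so that each GSK-126 culture was set against the DMSO culture of the same number, 2 of the 6 were called, against 3.65% of all genes. Slc12a5 was lower, as were 1.42% of all genes, and Slc12a4 was higher, as were 2.23%. 3 of the 6 moved in 1 direction in all 3 pairs, against 39.0% of all genes, and only Slc12a5 had groups that did not overlap in CPM, against 10.9% of all genes. The median log2 fold change was 0.01 over the 6 genes and -0.002 over all genes tested in both fits.

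**Figure D1:**
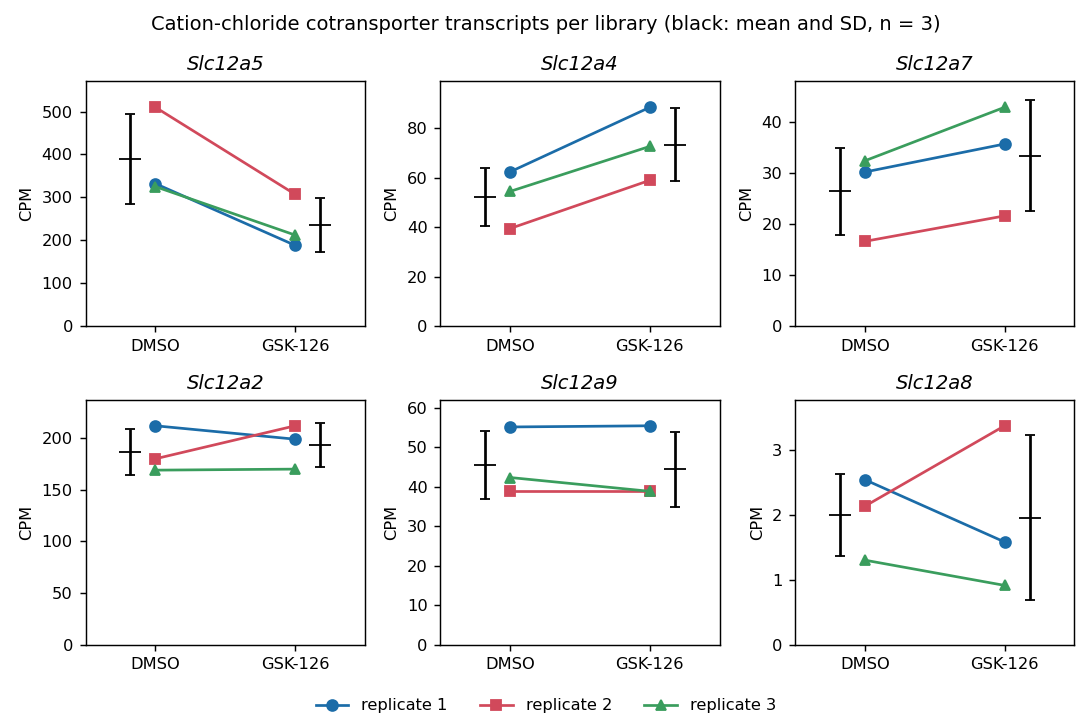
CPM of the 6 cotransporter genes in each DMSO and GSK-126 library, from 0, with lines joining libraries of the same replicate number and black marks for the mean and SD (n = 3). The lines of Slc12a5 all fall, from 325 to 510 CPM down to 188 to 307 CPM, those of Slc12a4 and Slc12a7 all slope upwards, and those of Slc12a2, Slc12a8 and Slc12a9 take no common direction.

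Slc12a5 (ENSMUSG00000017740.17) lies on the plus strand of chromosome 2 from 164960802 to 164999731 (GRCm38), with 7447 bases of exon that no other gene's exons overlap. RefSeq (GRCm38.p6) places starts of this gene 7142 bases apart, at 164960846 and at 164967988, from which isoforms that differ at their N terminus are made. Gene-level counts add both isoforms, so the values that follow cannot say which start they come from. The sequences upstream of both starts are shown because Slc12a5 and Slc12a4 were the called members. In the lines that follow, read 5′ to 3′ on the gene's strand, capitals mark matches on either strand to the E-box CACGTG, the motif bound by the USF factors, or to the GC box GGGCGG, and bases annotated as exon were left off the right-hand end.
Slc12a5 upstream of the first start, chr2:164960596-164960801: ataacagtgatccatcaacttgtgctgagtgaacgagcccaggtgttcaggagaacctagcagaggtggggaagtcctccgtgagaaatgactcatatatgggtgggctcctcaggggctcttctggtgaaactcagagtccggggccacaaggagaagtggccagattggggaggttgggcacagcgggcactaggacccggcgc
Slc12a5 upstream of the second start, chr2:164967738-164967982: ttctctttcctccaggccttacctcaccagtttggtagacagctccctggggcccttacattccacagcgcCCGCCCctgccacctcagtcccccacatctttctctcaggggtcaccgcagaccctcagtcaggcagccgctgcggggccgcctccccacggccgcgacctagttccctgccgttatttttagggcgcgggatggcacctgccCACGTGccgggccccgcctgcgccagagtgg
The 250 bases before the second start had a GC content of 67.2% and 1 E-box, 36 bases before the start, besides 1 GC box at 179 bases. Those before the first start had a GC content of 61.2% and neither motif. Of all 32851 RefSeq promoter windows of this length, 6.02% held CACGTG and 32.7% held GGGCGG, and the median GC content was 52.4%. No capitals overlapped. A match is a run of letters and not evidence of binding.

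Slc12a5 had the highest mean CPM of the 6 genes in each group and fell in every pair. Its level was 332, 510 and 325 CPM in DMSO replicates 1, 2 and 3, from 2880, 4081 and 2751 counts. In GSK-126 replicates 1, 2 and 3 it was 188, 307 and 212 CPM, from 2259, 2551 and 1861 counts. The highest GSK-126 library lay below the lowest DMSO library, and replicate 2 was the highest of its group in both. The mean went from 389 ± 105 CPM to 236 ± 63.1 CPM (SD, n = 3), and the pairs differed by -0.82, -0.73 and -0.62 on the log2 scale. edgeR with treatment alone gave a log2 fold change of -0.72 (SE 0.242, 95% interval -1.28 to -0.17, adjusted p = 0.814). With the block the change was the same size, 0.606 of the DMSO level, with an SE of 0.101, an interval of -0.94 to -0.50 and an adjusted p of 0.00461 in edgeR.

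Most granule neuron markers moved the same way as Slc12a5. Their summed level was 6140, 8440 and 6520 CPM in DMSO replicates 1 to 3 and 4380, 6680 and 5160 CPM in GSK-126 replicates 1 to 3, lower in each of the 3 pairs, though the groups overlap. With the block 6 of the 12 markers were called lower and 0 higher, and the median log2 fold change of the 12 was -0.45. Those called were Neurod1, Rbfox3, Gabra6, Etv1, Cbln1 and Cbln3. Pax6 alone had a positive log2 fold change, 0.04 (adjusted p = 0.895, edgeR with the block). Fat2, at -0.18 (adjusted p = 0.474, same fit), was lower in 2 of the 3 pairs. Markers of cerebellar GABAergic neurons, another class that uses KCC2, summed to 201 to 268 CPM in DMSO and 173 to 202 CPM in GSK-126, also lower in each pair, with 1 of 8 lower with the block. The part of cell composition in the Slc12a5 difference was not tested.

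Slc12a4 (ENSMUSG00000017765.17), the gene of KCC1, lies on the minus strand of chromosome 8 from 105943590 to 105966097, with 4279 bases of exon. The 250 bases before its RefSeq start at 105966115 are shown on the gene's strand, with capitals as above.
Slc12a4, chr8:105966116-105966365: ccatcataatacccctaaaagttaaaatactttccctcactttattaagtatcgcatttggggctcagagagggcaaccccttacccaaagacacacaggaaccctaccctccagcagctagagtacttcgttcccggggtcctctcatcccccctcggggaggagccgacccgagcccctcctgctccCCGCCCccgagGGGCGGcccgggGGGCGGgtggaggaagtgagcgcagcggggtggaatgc
This window had a GC content of 60.8%, 3 GC boxes, of which the nearest began 38 bases before the start, and no E-box.

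Slc12a4 rose with the block, opposite to Slc12a5. Its level was 62.3, 39.4 and 54.4 CPM in DMSO replicates 1, 2 and 3, from 540, 315 and 460 counts. In GSK-126 replicates 1, 2 and 3 it was 88.4, 58.9 and 72.6 CPM, from 1062, 489 and 637 counts. Replicate 2 was the lowest of its group in both, and because of it the groups overlap: GSK-126 replicate 2 lay below DMSO replicate 1. The mean went from 52.0 ± 11.6 to 73.3 ± 14.8 CPM (SD, n = 3), with pair differences of 0.50, 0.58 and 0.42 on the log2 scale. edgeR with treatment alone gave a log2 fold change of 0.50 (SE 0.209, 95% interval 0.02 to 0.97, adjusted p = 0.824). With the block it was again 0.50, or 1.41-fold, with an SE of 0.114, an interval of 0.25 to 0.75 and an adjusted p of 0.0364 in edgeR. That call was lost without replicate 2 of both groups (adjusted p = 0.146, edgeR) and without replicate 3 (0.169), while the log2 fold change lay between 0.48 and 0.54 with any 1 pair left out.

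The summed levels of several other cell types were also higher in each pair, though not every marker was. The 10 endothelial and mural markers summed to 503, 613 and 779 CPM in DMSO and 872, 876 and 1090 CPM in GSK-126, with no overlap. Of the 9 that were tested 4 were higher with the block (Flt1, Pdgfrb, Cspg4 and Acta2), the median log2 fold change was 0.62, and Cldn5 was too low to test. Acta2, a smooth muscle actin, gave most of that sum, with 274, 419 and 506 CPM in DMSO and 556, 597 and 702 CPM in GSK-126. The endothelial markers Cdh5 and Kdr had log2 fold changes of -0.30 and -0.01 with the block (edgeR adjusted p = 0.240 and 0.992), and Cdh5 was lower in each pair. Among the DMSO libraries the endothelial and mural sum was lowest in replicate 1, and Slc12a4 was lowest in replicate 2. Fibroblast markers summed to 6830, 6880 and 8850 CPM in DMSO and 9850, 8880 and 9820 CPM in GSK-126, with 1 of 6 higher (Col1a1) and a median of 0.24. Microglial markers were higher in each pair, at 302, 234 and 390 CPM against 595, 276 and 460 CPM, with 1 of 8 tested higher (C1qb) and Trem2 at 0 counts in every library. The astrocyte and Bergmann glia sum took no common direction over the pairs, at 7710, 2610 and 4850 CPM in DMSO and 8020, 2550 and 4170 CPM in GSK-126. Of its 11 markers 1 was higher with the block, Gdf10, at 0.94 (adjusted p = 0.0459, edgeR), and S100b, higher in each pair at 0.58, was not called (0.0737). Replicate 2, the lowest in Slc12a4 and the highest in Slc12a5, was thus also the lowest in astrocyte markers in both groups. Oligodendrocyte lineage markers ran from 525 to 797 CPM in DMSO and 585 to 925 CPM in GSK-126, higher in each pair with 1 of 10 higher (Cspg4), and markers of cycling granule progenitors from 267 to 410 and 290 to 405 CPM, with 0 of 8 called. The part of these cells in the Slc12a4 difference was not tested. In addition 8.44% of the Slc12a4 exon bases lie opposite exons of Gm16156, which itself had 92, 60 and 92 counts in DMSO and 177, 72 and 137 in GSK-126, and without a known strand setting reads from the pair cannot be told apart there.

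Slc12a7 (ENSMUSG00000017756.9; chromosome 13, plus strand, 73733094 to 73816754; 12669 bases of exon) encodes KCC4. Its level was 30.2, 16.6 and 32.4 CPM in DMSO replicates 1, 2 and 3 (262, 133 and 274 counts) and 35.7, 21.6 and 42.9 CPM in GSK-126 replicates 1, 2 and 3 (429, 179 and 377 counts). Like Slc12a4 it was lowest in replicate 2 of each group, and the groups overlap. The means were 26.4 ± 8.54 and 33.4 ± 10.9 CPM (SD, n = 3), with pair differences of 0.24, 0.37 and 0.40. Neither fit called it: edgeR gave a log2 fold change of 0.34 with an interval of -0.38 to 1.05 and an adjusted p of 0.878, and with the block an interval of 0.03 to 0.65 and an adjusted p of 0.257 (unadjusted p = 0.036).

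Slc12a2 (ENSMUSG00000024597.11; chromosome 18, plus strand, 57878678 to 57946821; 10920 bases of exon), the gene of the chloride importer NKCC1, showed no difference that either fit could detect. Its level was 212, 180 and 169 CPM in DMSO replicates 1, 2 and 3, from 1837, 1439 and 1434 counts. In GSK-126 replicates 1, 2 and 3 it was 199, 212 and 170 CPM, from 2384, 1761 and 1492 counts. The ranges of the groups nearly coincide, and the pairs went in different directions, by -0.09, 0.24 and 0.00. The means were 187 ± 22.1 and 194 ± 21.6 CPM (SD, n = 3). edgeR gave a log2 fold change of 0.05 with a 95% interval of -0.28 to 0.38 (adjusted p = 0.970), and -0.19 to 0.29 with the block (adjusted p = 0.879), so a fall of the size seen for Slc12a5 lies outside both intervals.

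**Figure D2:**
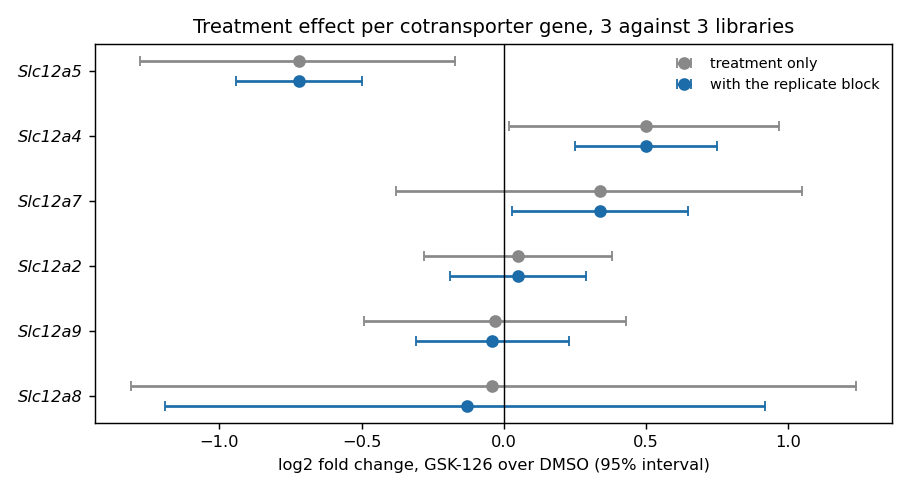
Log2 fold change of GSK-126 over DMSO for each cotransporter gene with its 95% interval, in grey from the edgeR fit with treatment only and in blue with the replicate block (3 against 3 libraries). The estimates hardly move between the fits while the intervals narrow, and with the block those of Slc12a5 (-0.94 to -0.50), Slc12a4 (0.25 to 0.75) and Slc12a7 (0.03 to 0.65) leave out 0, although Slc12a7 was not called after adjustment.

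The ratio of extruder to loader, taken as Slc12a5 reads per Slc12a2 read within a library, needs no scaling between libraries. It was 1.57 in DMSO replicate 1 (95% counting interval 1.48 to 1.66), 2.84 in replicate 2 (2.67 to 3.01) and 1.92 in replicate 3 (1.80 to 2.05). In GSK-126 it was 0.948 in replicate 1 (0.894 to 1.00), 1.45 in replicate 2 (1.36 to 1.54) and 1.25 in replicate 3 (1.16 to 1.34). Every GSK-126 library thus had a lower ratio than every DMSO library, and the gaps between replicates of 1 group were wider than the counting intervals, which cover counting error only. The mean log2 ratio was 1.03 ± 0.435 in DMSO and 0.26 ± 0.311 in GSK-126 (SD, n = 3), a difference of -0.77, or 0.586 of the DMSO ratio. Within pairs the difference was -0.73, -0.97 and -0.62, with a mean of -0.77 and an SD of 0.178. An exact two-sided permutation test of the group difference gave p = 0.1, the smallest that 3 against 3 allows, and exact two-sided sign flips of the 3 pairs gave p = 0.25, likewise the smallest possible. Neither exact test could therefore reach 0.05 with 3 libraries a group, and the pair differences with their SD are the measure of how far the ratio moved. Per kilobase of exon the ratio was 2.30, 4.16 and 2.81 in DMSO and 1.39, 2.12 and 1.83 in GSK-126, so that Slc12a5 remained the more abundant transcript of the pair in all 6 libraries.

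**Figure D3:**
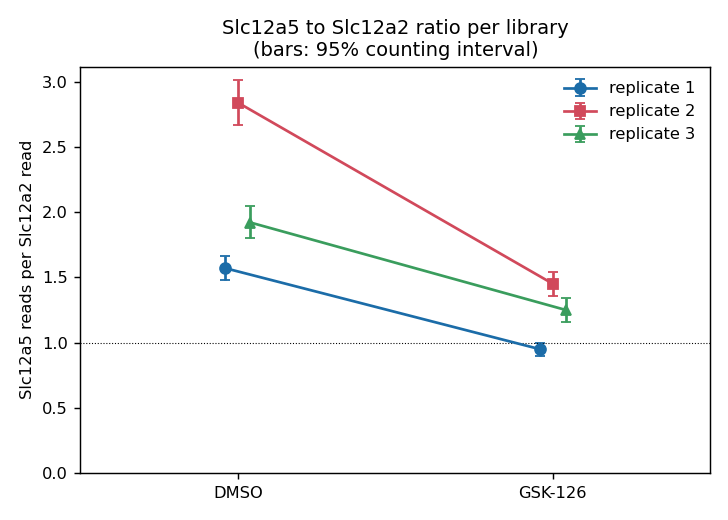
Slc12a5 reads per Slc12a2 read in each library, from 0, with 95% counting intervals and lines joining libraries of the same replicate number. The dotted line marks equal read numbers. The 3 DMSO libraries sit between 1.57 and 2.84, and the 3 GSK-126 libraries between 0.948 and 1.45.

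4 further ratios were computed in the same way, with the same exact permutation test, which cannot go below 0.1 here. Slc12a5 against Slc12a4 differed by -1.22 on the log2 scale between the groups, with pairs at -1.33, -1.31 and -1.03, no overlap and an exact permutation p of 0.1. Slc12a4 against Slc12a2 differed by 0.45 (exact permutation p = 0.3) and Slc12a7 against Slc12a2 by 0.29 (exact permutation p = 0.6), both with groups that overlap. The sum of the 3 exporters Slc12a4, Slc12a5 and Slc12a7 per kilobase against Slc12a2 differed by -0.41, with pairs at -0.24, -0.72 and -0.28 and an exact permutation p of 0.1. The groups nearly touch there, at a lowest DMSO ratio of 3.17 and a highest GSK-126 ratio of 3.14. The 5 ratios share genes and libraries and are not separate evidence, and an adjustment over them could only raise these p-values.

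Among the exporters Slc12a5, Slc12a4 and Slc12a7, the shares of the summed transcript level shifted in each pair. On the scale of CPM per kilobase of exon, Slc12a5 was 72.5%, 86.7% and 74.1% of these 3 genes in DMSO replicates 1, 2 and 3 and 51.8%, 72.7% and 58.3% in GSK-126. Slc12a4 was 23.6%, 11.6% and 21.6% of them in DMSO and 42.4%, 24.3% and 34.7% in GSK-126. The Slc12a5 share was lower in GSK-126 in each of the 3 pairs, but the groups overlap, since GSK-126 replicate 2 lay just above DMSO replicate 1. The Slc12a4 share was higher in every GSK-126 library than in every DMSO library, by a narrow margin at GSK-126 replicate 2. The means were 77.8% ± 7.78 and 61.0% ± 10.7 for Slc12a5, 19.0% ± 6.41 and 33.8% ± 9.1 for Slc12a4 and 3.29% ± 1.43 and 5.24% ± 2.03 for Slc12a7 (SD, n = 3), and no test was run on the shares. The summed level of the 3 genes was 61.6, 79.0 and 58.9 CPM per kilobase in DMSO and 48.8, 56.7 and 48.8 in GSK-126. Shares add to a fixed total, so the fall of 1 gene raises the shares of the others.

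**Figure D4:**
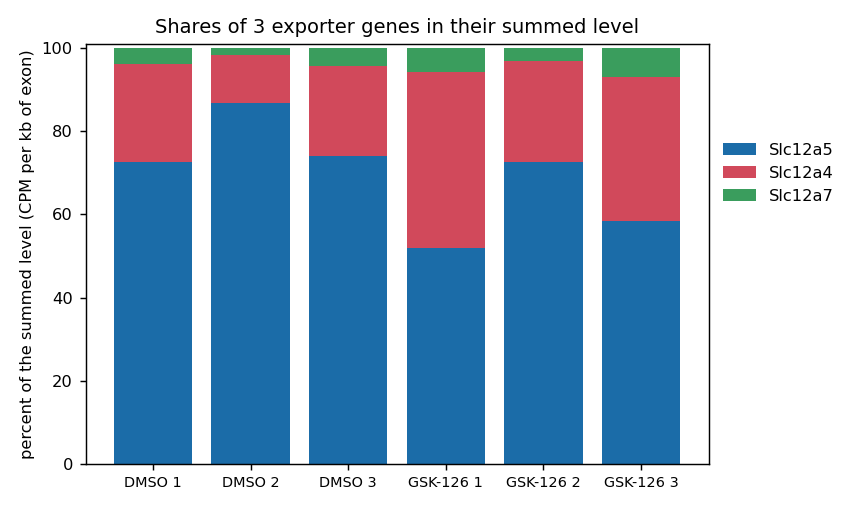
Stacked bars of the share of Slc12a5, Slc12a4 and Slc12a7 in their summed CPM per kilobase of exon, for each library, in percent. The Slc12a5 part runs from 72.5% to 86.7% in DMSO and from 51.8% to 72.7% in GSK-126.

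Slc12a9 (ENSMUSG00000037344.14; chromosome 5, minus strand, 137314558 to 137333597; 5020 bases of exon) differed between the groups by less than the spread of its replicates. It was 55.1, 38.8 and 42.3 CPM in DMSO replicates 1, 2 and 3, from 478, 310 and 358 counts. In GSK-126 replicates 1, 2 and 3 it was 55.4, 38.8 and 38.8 CPM, from 665, 322 and 341 counts. Replicate 1 was the highest in both groups. edgeR gave a log2 fold change of -0.03 (95% interval -0.49 to 0.43, adjusted p = 0.986) and, with the block, -0.04 (-0.31 to 0.23, adjusted p = 0.923).

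Slc12a8 (ENSMUSG00000035506.16; chromosome 16, plus strand, 33517328 to 33664135; 4444 bases of exon) was the least abundant. It had 22, 17 and 11 counts in DMSO replicates 1, 2 and 3 and 19, 28 and 8 counts in GSK-126, or 2.54, 2.13 and 1.30 CPM against 1.58, 3.37 and 0.911 CPM. The GSK-126 libraries lie on both sides of the DMSO libraries, and replicate 3 was the lowest of both groups. The edgeR interval of its log2 fold change, -1.31 to 1.24 (adjusted p = 0.995), or -1.19 to 0.92 with the block (adjusted p = 0.930), leaves more than a doubling or halving open at this depth.

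Compared with each other per length, the 6 genes kept 1 order of mean levels in both groups. In DMSO the mean was 52.3 CPM per kilobase for Slc12a5, 17.1 for Slc12a2, 12.2 for Slc12a4, 9.04 for Slc12a9, 2.08 for Slc12a7 and 0.447 for Slc12a8. Among the genes tested these put Slc12a5 at percentile 94.8, Slc12a2 at 79.0, Slc12a4 at 69.8, Slc12a9 at 61.1, Slc12a7 at 22.3 and Slc12a8 at 3.66. The ranges of Slc12a4 and Slc12a9 overlap, and all other neighbours are apart. In GSK-126 the means were 31.7, 17.7, 17.1, 8.83, 2.64 and 0.440 CPM per kilobase in the same order. There it was Slc12a2 and Slc12a4 whose ranges overlap, and Slc12a2 exceeded Slc12a4 in 1 of the 3 libraries, against 3 of 3 in DMSO.

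Slc12a1 (NKCC2) and Slc12a3 (NCC), further members of the family known from the kidney, were too low to test. Slc12a1 had 15 counts over the DMSO libraries, 5, 6 and 4 of them, and 0 over the GSK-126 libraries. With a floor of 3 counts in place of 0, the GSK-126 level was 5.84-fold lower. That figure leaves out the counting error of the 15 DMSO counts. Slc12a1 was not called (adjusted p = 0.484 in edgeR without the filter or block). Slc12a3 had 3 counts in DMSO and 7 in GSK-126.

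63 of 72 listed genes around these transporters could be tested. 0 of them were called with treatment alone and 2 with the block, both lower, against 3.65% of all genes tested. Of the 6 genes known or proposed to regulate Slc12a5 transcription, Egr4, an activity-induced zinc finger factor, was called. It had 83, 241 and 57 counts in DMSO and 12, 14 and 5 counts in GSK-126, or 15.5 ± 12.8 against 1.09 ± 0.564 CPM (SD, n = 3), and every GSK-126 library lay below every DMSO library. Its log2 fold change was -3.69 (SE 0.315, adjusted p = 0.00034, edgeR with the block). Like Slc12a5, Egr4 was highest in replicate 2 of DMSO and of GSK-126. REST, which represses neuronal genes, went from 30.7 to 41.2 CPM (Rest, 0.45, adjusted p = 0.147), and its corepressor gene Rcor1 from 85.0 to 68.0 CPM (-0.33, adjusted p = 0.172). The log2 fold changes of the E-box binding factors Usf1 and Usf2 were -0.14 and -0.20 (adjusted p = 0.637 and 0.484), from edgeR with the block. The median of the 6 was -0.23.

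The other called gene was Atp1b2, a beta subunit of the Na,K-ATPase, the pump that builds the potassium and sodium gradients that the cotransporters run on. Its level was 623, 852 and 636 CPM in DMSO and 491, 529 and 415 CPM in GSK-126, without overlap, and it fell by 0.55 on the log2 scale (adjusted p = 0.0171, edgeR with the block). It was the 1 called among 10 tested subunit genes, whose median was -0.21. The summed level of the Na,K-ATPase genes was 3850 to 4410 CPM in DMSO and 3090 to 3540 CPM in GSK-126. Atp1b2 is also known from astrocytes, whose marker sums ran as given above.

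In the remaining lists 0 genes were called with the block, and 4 of these lists are described here. The 13 genes of the WNK and SPAK/OSR1 kinase pathway, which phosphorylates NKCC1 into its active and the KCCs into their inactive state, had a median of -0.06. The smallest p-values there belonged to Nedd4l, a ubiquitin ligase (181 ± 30.5 against 132 ± 35.4 CPM, -0.48, adjusted p = 0.057), and Klhl3, an adaptor for WNK degradation (-0.36, adjusted p = 0.122). The 7 tested genes of KCC2 partners had a median of -0.20, led by Epb41l1, the gene of a cytoskeletal linker (464 ± 143 against 365 ± 109 CPM, -0.35, adjusted p = 0.0811), and Neto2, the gene of an auxiliary protein that binds KCC2 (-0.45, adjusted p = 0.129). The 14 tested chloride channel genes had a median of 0.06, with Clcn2 at -0.39 and Clcn5 at 0.31 (both adjusted p = 0.190). The 12 tested genes of bicarbonate transporters and carbonic anhydrases, which handle the other anion that passes GABA-A receptors, had a median of 0.03, with Car2 at 0.68 (adjusted p = 0.193) and Slc4a2 at 0.31 (adjusted p = 0.220).

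**Figure D5:**
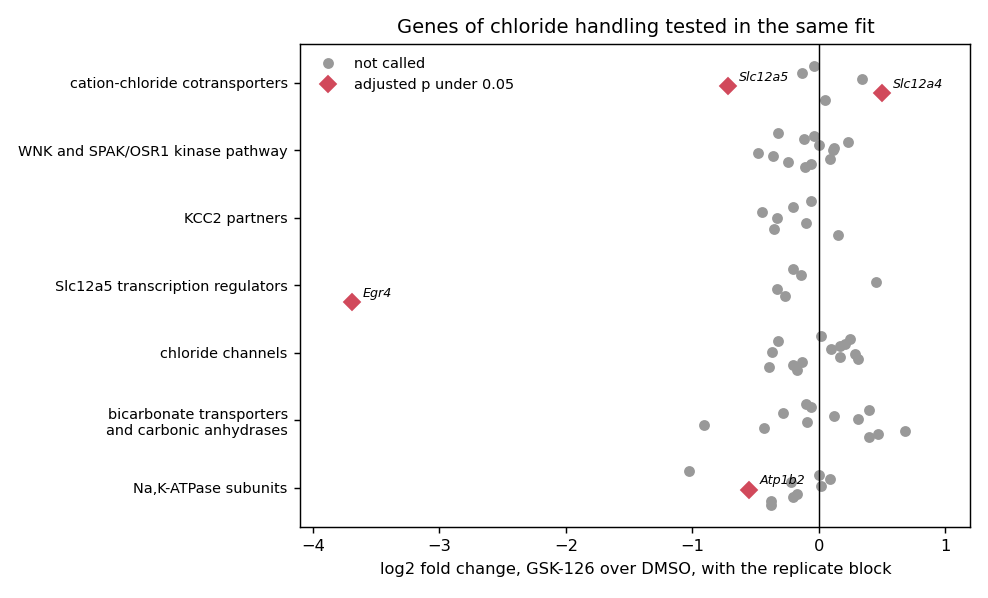
Log2 fold change of GSK-126 over DMSO with the replicate block for the tested genes of the 6 cotransporters and of 6 lists around them, 1 point a gene. Red diamonds mark genes with an adjusted p under 0.05: Slc12a5 (-0.72), Slc12a4 (0.50), Egr4 (-3.69) and Atp1b2 (-0.55).

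Genes with the profile most like each cotransporter were ranked by Pearson's r of log2 CPM over the 6 libraries among genes with a mean of at least 10 CPM, 11418 or 11419 genes in each case. These libraries fall into 2 treatments and 3 culture pairs, so r is a description of few points and the highest of many. For Slc12a5 the genes were Deaf1 (r = 0.997), Rnf112 (0.997), Gabra6 (0.996), E330009J07Rik (0.996) and Dnm1 (0.996). Gabra6, the GABA-A receptor subunit typical of mature granule neurons and one of the granule neuron markers, went from 133 to 49.6 CPM, and Dnm1, the dynamin of synaptic vesicle retrieval, from 329 to 177 CPM. For Slc12a4 they were Slc37a2 (0.997), Gxylt2 (0.993) and Cd44 (0.993), a cell surface receptor for hyaluronan that went from 172 to 263 CPM. For Slc12a2 they were Tmem167 (0.992), Tmem106b (0.992), Chic2 (0.990), Ktn1 (0.983) and Xrcc2 (0.982). Masp1 (0.998), Bcat2 (0.997) and Man2b1 (0.995) were closest to Slc12a7, Hsp90aa1 (0.992), Crls1 (0.990) and Zbtb25 (0.988) to Slc12a8, and Gjb2 (0.991) and Enpep (0.990) were among the closest to Slc12a9. Between the members themselves, r was -0.97 for Slc12a4 and Slc12a5, -0.84 for Slc12a5 and Slc12a7, 0.81 for Slc12a4 and Slc12a7 and -0.03 for Slc12a2 and Slc12a5.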

How the data were processed

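Poly(A) RNA of 3 DMSO and 3 GSK-126 cultures was sequenced, and the deposited values are raw counts of reads per gene that the authors made with HTSeq over exons. The submitters' processing notes name Trimmomatic 0.38, STAR 2.7.2b, FastQC, MACS2 2.1, DESeq2 and mm10. The strand setting of the counting is not given in the sources used here. The 5 summary rows (reads without a gene), 58.4% to 60.9% of each table's total, stayed out of library sizes and tests. Each library's counts were checked against the others, and no pair agreed within sampling noise (lowest chi-square per degree of freedom 9.98).

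Counts were filtered (filterByExpr), scaled (TMM) and tested with edgeR 4.0.16 in R 4.3.3, with treatment as the only term and, as an alternative, with the replicate number as a block. The labels give replicate numbers but do not say what cultures of the same number share. Deviations from the group means correlated at 0.35, 0.50 and 0.52 between libraries of the same number and at -0.41 to -0.01 otherwise. Deviations within a group cancel out, so positive values for the same number push the others to be negative. Blocked values are given throughout because the comparison is by pairs. The biological coefficient of variation was 0.243 without and 0.142 with the block. P-values without the block measure the spread between cultures of a group. Those with the block measure the spread of the differences within pairs. Both use a variance estimate that is partly shared across genes. The ratio used counts plus 0.5, with SciPy 1.17.1. Other alternatives were DESeq2 1.42.0, limma 3.58.1 (voom), RLE size factors, no filter and leaving out libraries. The fits were tested on simulated data. Gene positions and exon lengths are from GENCODE for GRCm38, and promoter windows from RefSeq, which had entries for 5 of the 6 genes.

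The 6 genes, the 7 pathway lists and the 8 marker lists were chosen with earlier results of these data known. Named beside the 6 are other Slc12 genes, regulators of Slc12a5, the genes of each list past the threshold with the block or else 1 or 2 with the smallest p, and 3 genes (5 for Slc12a5 and Slc12a2) with the most similar profile. Some genes that this rule would name are not reported here, though counts and medians of lists include them.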

Additional observations from a re-analysis of the deposited data

How the results depend on the processing

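The calls rest on the pairing. With the replicate block Slc12a5 was called at -0.72 in edgeR and DESeq2 (adjusted p = 0.00461 and 7.11e-07), and at -0.77 to -0.67 with any 1 pair left out (-0.70 without replicate 2, adjusted p = 0.00211 to 0.0431). Slc12a4 was called at 0.50 in both tools (0.0364 and 0.0299) and without the replicate 1 pair (0.50, adjusted p = 0.0412), but not without pair 2 or 3. No other cotransporter was called under any alternative. Without the block, leaving out 1 library moved the log2 fold change of Slc12a5 from -0.96 to -0.47 (-0.47 without DMSO replicate 2), Slc12a4 from 0.34 to 0.65, Slc12a7 from 0.11 to 0.57, Slc12a2 from -0.02 to 0.16, Slc12a8 from -0.65 to 0.30 and Slc12a9 from -0.23 to 0.14. With the block the ranges were -0.03 to 0.12 for Slc12a2, -0.59 to 0.19 for Slc12a8 and -0.06 to 0.01 for Slc12a9, so the signs of these 3 are not settled. The GSK-126 minus DMSO difference in the log2 ratio of Slc12a5 to Slc12a2 stayed between -0.96 and -0.54. This held with or without the replicate block, per kilobase, with 5 counts added and with 1 library left out. Of the 63 pathway genes 0 were called with treatment alone, 2 with the replicate block (1 to 6 with 1 pair left out, 6 of them without replicate 1), 1 with DESeq2, 5 with DESeq2 and the replicate block, and 1 without the filter on low counts. Over all genes the replicate block called 365 higher and 232 lower, 125 and 53 without the replicate 2 pair, and 211 and 148 without the replicate 3 pair. DESeq2 called 46 and 13, or 408 and 266 with the block, limma-voom 0, and edgeR without the filter 55 and 30. Slc12a8, at 8 to 28 counts, is limited by depth.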
